A study of Mus musculus with 30 samples.

Results

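Cultured cells of 2 mouse oral carcinoma lines, MOC1 and MOC1E1, were compared with each other by bulk RNA sequencing. The comparison holds 6 culture libraries (3 per line) of the 30 samples in the series, and the 13975 of 55573 genes in the culture table that reached 1 TPM, a length-normalized share of the transcripts, in at least 3 of the 6 libraries. Of the tested genes 11797 were named from the feature list of a single-cell sample of the same series and 2176 from a table of gene names. The other samples are exomes of the cultured lines and tumours grown from MOC1, MOC1E1 or another line, MOC22, in mice given checkpoint antibodies, an isotype antibody or nothing. The tumours were read by single-cell RNA, T cell receptor or bulk RNA sequencing. Of all these, only the untreated bulk tumours (3 MOC1, 3 MOC1E1) are set beside the cultures here.

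Both lines are squamous carcinoma cells on the C57BL/6J background, and MOC1E1 appears in part of the labels as MOC1esc1. Cells were grown in IMDM with Ham's F12 and 5% heat-inactivated serum, penicillin and streptomycin, with 5 ng/ml EGF, 400 ng/ml hydrocortisone and 5 mg/ml insulin, as the labels write the last dose. The labels give all 6 cultures as untreated, whereas the column names of the deposited table end in a tag that reads as addition of interferon gamma. The sources used here do not settle which holds, and no second set of cultures was compared, so each value below is a difference between lines under this 1 condition and not a response to interferon. Whether the 3 libraries of a line came from separate cultures is not given, so the p-values measure the spread between these libraries, which may be technical.

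Interferon gamma is a cytokine of T and NK cells. It binds a receptor of a ligand-binding chain (Ifngr1) and a signalling chain (Ifngr2), whose kinases Jak1 and Jak2 start the signal to the nucleus. The signal acts through gamma-activated sites (GAS) and, with Irf1 among the factors that bind them, interferon-stimulated response elements (ISRE) in genes for antigen presentation, chemokines and antiviral proteins. In squamous carcinoma these genes are known for making tumour cells visible to T cells, and for the ligand PD-L1 (Cd274), which restrains them.

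The 2 lines differed at most of the tested genes. limma on log2(TPM + 1) called 53.4% of the 13975 genes at a Benjamini-Hochberg adjusted p of 0.05 or less. MOC1E1 was higher at 2821 genes (20.2%) and lower at 4640 (33.2%). At 61.1% of tested genes the 3 libraries of one line did not overlap those of the other. "Rose" and "fell" below refer to genes called this way, in MOC1E1 relative to MOC1, and every difference is on the log2(TPM + 1) scale, which understates the change of low genes. Large differences lay mostly on the lower side: 885 called genes were lower by at least 1 log2 unit against 174 higher, and 228 were lower by at least 2 units against 16 higher. The first principal component held 77.2% of the variance and separated the lines. The correlation of log2(TPM + 1) between libraries ran from 0.988 to 0.992 within a line and from 0.947 to 0.956 between lines. The median difference over all tested genes was -0.062. The balance of higher and lower calls depended on the scaling: 37.8% of calls were higher on the deposited scale, 48.5% (3687 higher, 3913 lower) after trimmed-mean scaling and 54.7% (4285 higher, 3547 lower) after quantile normalization, which moved the median of all genes to 0.063. Small differences are therefore described with their size. The shares of 20.2% higher and 33.2% lower are the background for every list count in culture below.

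The cultures had the marker profile of keratinocyte-derived carcinoma cells. All 12 carcinoma markers were detected, with summed levels of 13641 to 14026 TPM in MOC1 and 14559 to 15429 TPM in MOC1E1. Krt5, a basal keratin, had 3423, 3446 and 3399 TPM in MOC1 and 3805, 3638 and 3919 TPM in MOC1E1. The pan-leukocyte gene Ptprc stayed at or below 0.06 TPM in all 6 libraries, and the 12 fibroblast markers summed to at most 1.76 TPM. Of 8 endothelial markers 2 passed the filter, and their list summed to 15.0 to 17.1 TPM in MOC1 and 16.1 to 18.4 TPM in MOC1E1. Of 20 leukocyte markers 3 passed the filter. The marker sum was 26.5 to 37.9 TPM in MOC1 and 7.99 to 10.1 TPM in MOC1E1, carried by Cd14, Lyz2 and Cd68. Cd14, a lipopolysaccharide co-receptor, had 22.3, 19.8 and 19.2 TPM in MOC1 and 3.55, 4.1 and 3.66 TPM in MOC1E1. Lyz2, a lysozyme, had 7.16, 7.55 and 1.61 TPM in MOC1 and 0.04, 0.14 and 0.13 TPM in MOC1E1, with MOC1 S6 well below the other MOC1 libraries. These values move with the immune genes described below, and their part in those results was not tested. Ifng itself, the interferon gamma gene, was listed at 0 in all 3 MOC1 libraries and at 0, 0.05 and 0.14 TPM in MOC1E1.

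The largest rise was that of Rhox5, an X-linked homeobox gene normally active in testis, ovary and placenta. It measured 28.02, 26.1 and 30.2 TPM in MOC1 and 874, 836 and 817 TPM in MOC1E1 (log2 difference 4.86 ± 0.060 SE, adjusted p = 4.5e-08). All MOC1E1 libraries lay far above all MOC1 libraries. The genes described next had a mean of at least 8 TPM and no overlap between lines. Rps12-ps4 (3.79) and Gm14287 (3.54) lay above Igfbp2 in this set but are held as uncertain. Igfbp2, a secreted binder of insulin-like growth factors, measured 11.7, 10.5 and 11.04 TPM in MOC1 and 91.5, 95.8 and 94.9 TPM in MOC1E1 (log2 difference 2.98 ± 0.056 SE, adjusted p = 1.28e-07). Ckb, brain-type creatine kinase, measured 4.12, 4.26 and 5.14 TPM in MOC1 and 34.3, 32.6 and 36.2 TPM in MOC1E1 (log2 difference 2.69 ± 0.089 SE, adjusted p = 7.93e-07). Krt79, a keratin of hair follicle and sebaceous ducts, measured 10.4, 12.9 and 12.5 TPM in MOC1 and 83.5, 77.6 and 81.99 TPM in MOC1E1 (log2 difference 2.67 ± 0.083 SE, adjusted p = 6.79e-07). The glutathione transferase Gstm1 measured 4.17, 4.72 and 3.91 TPM in MOC1 and 23.2, 23.8 and 23.9 TPM in MOC1E1 (log2 difference 2.23 ± 0.078 SE, adjusted p = 1.04e-06). For Rhox5, Igfbp2, Ckb, Krt79 and Gstm1 the 3 libraries of each line lay close together. Non-overlap of the lines was a condition of the set and held at 61.1% of all tested genes.

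Further members of the set rose less. The cell cycle factor E2f2 rose by 1.83, and Ctnnal1, an alpha-catenin-like protein, rose by 1.82. Sgk1, a serum- and glucocorticoid-induced kinase, went from 56.8 to 183 TPM on average and rose by 1.67. The labels give both lines the same hydrocortisone dose. The microtubule minus-end protein Camsap3 rose by 1.70. Zdhhc2, a palmitoyltransferase, rose by 1.70 with a wider spread, at 8.35, 3.11 and 3.38 TPM in MOC1 and 16.6, 17.9 and 16.4 TPM in MOC1E1. The intermediate filament gene Vim, vimentin, had the highest level among these genes, with 534, 487 and 527 TPM in MOC1 and 1566, 1594 and 1677 TPM in MOC1E1 (log2 difference 1.64 ± 0.052 SE, adjusted p = 6.89e-07). Id3, an inhibitor of helix-loop-helix factors, rose by 1.67. Rps12-ps4 is named as a ribosomal protein pseudogene whose reads can be shared with near-identical copies. Its libraries ran from 0 to 22.3 TPM in MOC1 and from 43.6 to 179.9 TPM in MOC1E1, and its adjusted p was 0.0677 at a pseudocount of 0.1, 0.0678 without MOC1E1 S10 and 0.0843 without MOC1E1 S12.

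The largest falls exceeded the rises in number and depth. Serpina3g, an inhibitor of cysteine and serine proteases, measured 53.4, 42.98 and 42.5 TPM in MOC1 and 0.21, 0.03 and 0.09 TPM in MOC1E1 (log2 difference -5.41 ± 0.12 SE, adjusted p = 2.3e-07). Stra6, the membrane receptor that takes up retinol, measured 70.4, 66.7 and 66.03 TPM in MOC1 and 0.6, 0.77 and 0.64 TPM in MOC1E1 (log2 difference -5.36 ± 0.073 SE, adjusted p = 4.5e-08). In MOC1E1 Serpina3g stayed at or below 0.21 TPM and Stra6 at or below 0.77 TPM. Lcn2, the iron-siderophore binding lipocalin of inflamed epithelium, measured 109, 79.2 and 96.9 TPM in MOC1 and 3.41, 1.95 and 1.53 TPM in MOC1E1 (log2 difference -4.89 ± 0.21 SE, adjusted p = 2.33e-06). Ly6k, a GPI-anchored protein, measured 40.7, 40.8 and 39.4 TPM in MOC1 and 0.66, 0.63 and 0.51 TPM in MOC1E1 (log2 difference -4.69 ± 0.075 SE, adjusted p = 6.6e-08).

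Further falls of over 4 log2 units were seen in secreted and enzymatic products. Nos2, inducible nitric oxide synthase, measured 93.7, 88.1 and 68.8 TPM in MOC1 and 3.26, 2.16 and 2.8 TPM in MOC1E1 (log2 difference -4.50 ± 0.15 SE, adjusted p = 7.72e-07). C1s1, a complement C1 protease, went from 48.9 to 1.35 TPM on average. Crabp1, a retinoic acid binding protein, went from 21.3 to 0.07 TPM. Pglyrp1, a peptidoglycan recognition protein, went from 33.6 to 0.71 TPM. Sparc, a matricellular glycoprotein, measured 95.4, 91.2 and 82.2 TPM in MOC1 and 3.64, 3.76 and 3.13 TPM in MOC1E1 (log2 difference -4.33 ± 0.084 SE, adjusted p = 1.39e-07). The alarmin Il33 measured 38.6, 39.1 and 33.5 TPM in MOC1 and 1.17, 0.77 and 1.07 TPM in MOC1E1 (log2 difference -4.25 ± 0.11 SE, adjusted p = 3.25e-07). By the choice of this set, no library of MOC1E1 reached the lowest MOC1 library for any of them. The interferon-induced genes Ifit3 and Gbp10 belong to the same set and are described with their families.

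**Figure D1:**
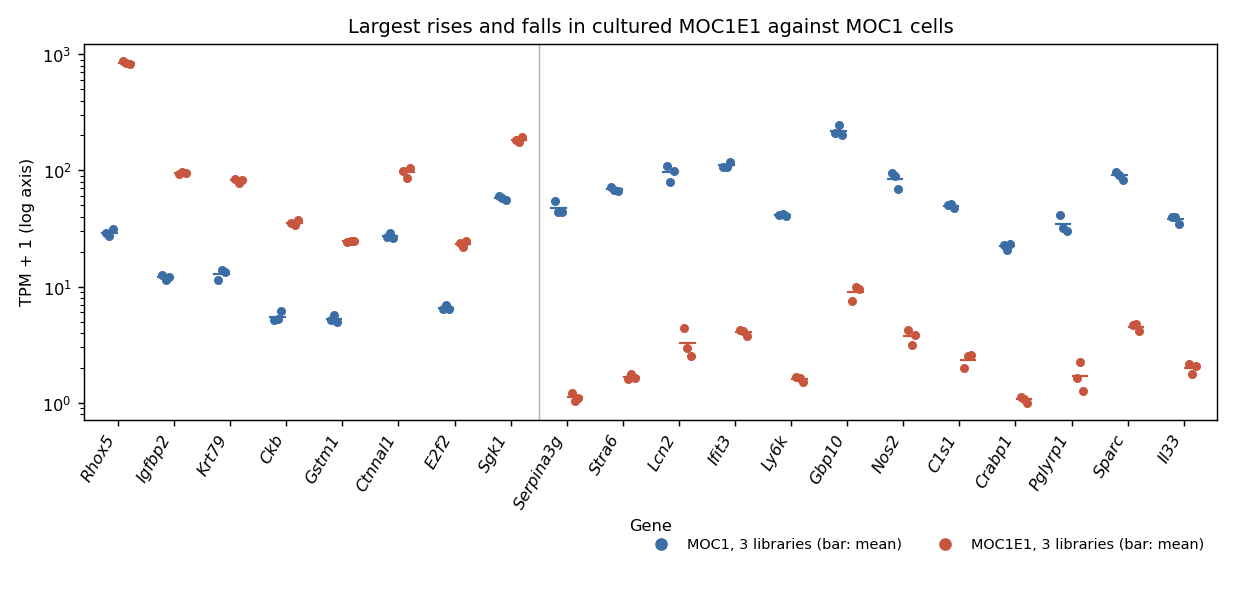
TPM + 1 on a log axis for 8 large rises (left of the grey line) and the 12 largest falls (right), with 1 point per library and a bar at the mean of 3 libraries. No overlap between the lines was a condition for choosing these genes. Rhox5 rises from a mean of 28.1 to 842 TPM while Serpina3g falls from 46.3 to 0.11 TPM.

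A stricter view asked which genes were present in one line and absent from the other, defined as at least 5 TPM in all 3 libraries against at most 0.1 TPM in all 3. No gene was absent in MOC1 and present in MOC1E1. In the other direction the genes that qualified included the piRNA-pathway protein Piwil2, the G protein regulator Rgs4 and Serping1, the C1 inhibitor of complement. Piwil2 had 11.1, 12.5 and 10.3 TPM in MOC1 and 0.09, 0.07 and 0 TPM in MOC1E1. Rgs4 had 9.75, 9.12 and 9.09 TPM in MOC1 and 0, 0.02 and 0.04 TPM in MOC1E1. Serping1 had 6.45 to 6.70 TPM in MOC1 and was listed at 0 in all 3 MOC1E1 libraries, so no fold is given. The depth of the libraries cannot be read from TPM, so absence means below what these libraries could show.

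Both interferon gamma receptor chains and Jak2 were lower in MOC1E1. Of the 19 genes in the list of receptor and signalling genes, 14 fell and 1 rose, with a median of -0.45 (all tested genes: -0.062, 33.2% lower). Ifngr1 measured 35.4, 30.8 and 31.1 TPM in MOC1 and 13.9, 14.8 and 14.8 TPM in MOC1E1 (log2 difference -1.11 ± 0.071 SE, adjusted p = 1.74e-05), and Ifngr2 measured 17.8, 17.7 and 16.4 TPM in MOC1 and 7.01, 8.45 and 9.4 TPM in MOC1E1 (log2 difference -0.98 ± 0.10 SE, adjusted p = 0.000209). Every MOC1E1 library lay below every MOC1 library for both chains. Jak2, the kinase held by Ifngr2, measured 23.2, 25.9 and 22.3 TPM in MOC1 and 15.4, 14.2 and 14.7 TPM in MOC1E1 (log2 difference -0.65 ± 0.073 SE, adjusted p = 0.000273). Jak1, held by Ifngr1, measured 53.5, 51.6 and 48.4 TPM in MOC1 and 49.4, 48.5 and 49.4 TPM in MOC1E1, which overlapped (log2 difference -0.057 ± 0.052 SE, adjusted p = 0.387). It changed sign after trimmed-mean scaling, to 0.02.

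Irf1, an induced transcription factor of the pathway, fell but stayed abundant. It measured 395, 428 and 394 TPM in MOC1 and 260.04, 229 and 278 TPM in MOC1E1 (log2 difference -0.67 ± 0.076 SE, adjusted p = 0.000299). The related factor Irf8 went from 56.3 to 31.1 TPM, and fell by 0.84. Usp18, which removes Isg15 from proteins and dampens the type I receptor, measured 40.98, 42.3 and 43.95 TPM in MOC1 and 10.1, 10.5 and 9.67 TPM in MOC1E1 and fell further (log2 difference -1.97 ± 0.059 SE, adjusted p = 6.28e-07). The feedback inhibitor Socs1 was low in both lines, 6.24, 4.67 and 5.79 TPM in MOC1 and 3.15, 2.78 and 4.25 TPM in MOC1E1, and fell (log2 difference -0.59 ± 0.15 SE, adjusted p = 0.0139), though not after quantile normalization (adjusted p = 0.058). Socs3, the inhibitor of gp130 signalling, was the 1 member that rose, with 35.2, 32.2 and 29.7 TPM in MOC1 and 42.95, 42.2 and 49.6 TPM in MOC1E1 (log2 difference 0.46 ± 0.085 SE, adjusted p = 0.00314).

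The promoters of 5 genes that fell are shown because their letters match the 2 kinds of element named above. The windows are RefSeq promoters of GRCm38.p6, each running from 250 bases before to 50 bases after a gene start, written 5′ to 3′ on the strand of the gene. Capitals mark matches on either strand to the ISRE letters (GAAA, any 2 bases, GAAA) in the first 4 and to the GAS letters TTCNNNGAA in Irf1. They lie at chr19:34583279-34583578 (Ifit3, plus strand), chr19:34640639-34640938 (Ifit1, plus strand), chr3:142620413-142620712 (Gbp2, plus strand), chr5:92348840-92349139 (Cxcl10, minus strand) and chr11:53769764-53770063 (Irf1, plus strand).
Ifit3: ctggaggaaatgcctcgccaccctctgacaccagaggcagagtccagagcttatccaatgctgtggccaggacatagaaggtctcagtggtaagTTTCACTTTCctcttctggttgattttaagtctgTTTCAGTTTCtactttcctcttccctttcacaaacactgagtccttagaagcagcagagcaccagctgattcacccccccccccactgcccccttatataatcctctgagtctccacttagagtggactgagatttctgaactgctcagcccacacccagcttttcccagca
Ifit1: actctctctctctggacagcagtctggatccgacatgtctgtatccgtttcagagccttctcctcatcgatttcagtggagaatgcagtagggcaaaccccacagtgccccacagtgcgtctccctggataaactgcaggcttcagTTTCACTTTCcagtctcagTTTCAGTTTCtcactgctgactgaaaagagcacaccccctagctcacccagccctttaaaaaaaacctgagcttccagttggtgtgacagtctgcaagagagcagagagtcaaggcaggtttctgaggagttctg
Gbp2: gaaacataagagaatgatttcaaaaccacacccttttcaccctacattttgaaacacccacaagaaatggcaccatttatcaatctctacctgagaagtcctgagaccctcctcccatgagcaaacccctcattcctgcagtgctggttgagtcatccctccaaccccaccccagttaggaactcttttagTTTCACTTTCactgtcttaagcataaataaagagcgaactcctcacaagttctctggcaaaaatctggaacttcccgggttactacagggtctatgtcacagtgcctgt
Cxcl10: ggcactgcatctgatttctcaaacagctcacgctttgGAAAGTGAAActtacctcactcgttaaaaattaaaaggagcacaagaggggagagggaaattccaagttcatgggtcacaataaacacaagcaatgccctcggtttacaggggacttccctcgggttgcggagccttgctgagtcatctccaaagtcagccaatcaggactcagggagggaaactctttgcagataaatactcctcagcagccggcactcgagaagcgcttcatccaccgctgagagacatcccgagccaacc
Irf1: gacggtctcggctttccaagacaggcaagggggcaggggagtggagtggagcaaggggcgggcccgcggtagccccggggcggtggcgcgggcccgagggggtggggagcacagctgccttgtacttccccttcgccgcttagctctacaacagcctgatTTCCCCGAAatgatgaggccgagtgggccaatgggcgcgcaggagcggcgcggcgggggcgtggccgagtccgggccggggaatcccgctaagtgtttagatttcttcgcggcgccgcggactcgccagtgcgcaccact
Ifit3 and Ifit1 each hold 2 ISRE matches in the window and Gbp2 and Cxcl10 hold 1 each. The Irf1 window printed holds 1 GAS match, and a second RefSeq window of Irf1, chr11:53770223-53770522, holds none. A match is a run of letters and not a measured binding site.

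Across all promoters the letters were counted as a description, with no test. The ISRE letters occurred in 3.44% of 32851 promoter windows and in the promoters of 352 of the 9193 tested genes with a window (3.83%). Of those 352 genes 48.6% fell and 17.9% rose, against 37.6% and 21.1% of the 9193. The list of type I interferon genes held the letters in 13 of 23 genes with a window and that of the interferon gamma-induced GTPases in 9 of 10. All 22 of these genes fell, and they are among the 352. With or without the letters, 30 of 31 and 18 of 18 tested members of these lists fell. Since nearly all members fell, these counts cannot separate genes with the letters from genes without them. Whether the falls of the 22 go with the letters was not tested. The GAS letters occurred in 8.19% of the 9193 genes, of which 38.9% fell. The kappa B letters (GGGA, any base, TTTCC), searched on both strands, occurred in 0.522% of the 9193 genes and in 4 of 7 listed genes for neutrophil chemokines and myeloid growth factors with a window.

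All 18 tested interferon gamma-induced GTPases fell, with a median of -1.21. These guanylate-binding proteins and immunity-related GTPases attack vacuoles of intracellular pathogens. Gbp2, the most abundant, measured 1390.1, 1376 and 1313 TPM in MOC1 and 571, 557 and 553 TPM in MOC1E1 (log2 difference -1.28 ± 0.041 SE, adjusted p = 7.65e-07). Gbp6 measured 332, 324 and 323 TPM in MOC1 and 81.9, 88.96 and 85.3 TPM in MOC1E1 (log2 difference -1.92 ± 0.045 SE, adjusted p = 2.89e-07). Gbp10 showed the deepest fall of the family, with 209.9, 244 and 199 TPM in MOC1 and 6.44, 8.94 and 8.47 TPM in MOC1E1 (log2 difference -4.62 ± 0.12 SE, adjusted p = 4.1e-07). Immunity-related GTPases fell by varying amounts. Igtp measured 753, 753 and 724 TPM in MOC1 and 403, 408 and 392 TPM in MOC1E1 (log2 difference -0.89 ± 0.040 SE, adjusted p = 2.76e-06), Irgm1 went from 787 to 428 TPM, and Tgtp1 went from 896 to 677 TPM with a difference of -0.41. Ifi47 went from 241 to 75.7 TPM, with a difference of -1.66. The smallest fall of the list was that of a guanylate-binding protein, Gbp7, with a difference of -0.37, named after its values were seen. Several Gbp and Tgtp genes are near-identical neighbours whose reads can be split between copies, so single members are less certain than the family.

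The genes of the type I interferon response fell further than the GTPases. Of 31 tested members 30 fell, with a median of -2.01, and the exception, Dhx58, named after its values were seen, differed by -0.19. Ifit3, which acts with Ifit1 on viral RNA, measured 106, 106 and 117 TPM in MOC1 and 3.24, 3.14 and 2.74 TPM in MOC1E1 (log2 difference -4.78 ± 0.074 SE, adjusted p = 5.89e-08). Ifit1 measured 94.8, 96.5 and 102 TPM in MOC1 and 5.52, 5.99 and 4.53 TPM in MOC1E1 (log2 difference -3.97 ± 0.092 SE, adjusted p = 2.89e-07). Ifit2 measured 35.1, 34.9 and 35.3 TPM in MOC1 and 1.93, 2.17 and 1.8 TPM in MOC1E1 (log2 difference -3.61 ± 0.074 SE, adjusted p = 1.81e-07). The 3 neighbours on chromosome 19 thus lay between 12.2- and 27.4-fold lower on this scale. The ubiquitin-like modifier Isg15 measured 299.6, 324 and 345 TPM in MOC1 and 68.5, 80.3 and 70.7 TPM in MOC1E1 (log2 difference -2.13 ± 0.076 SE, adjusted p = 1.15e-06), and the oligoadenylate synthetase-like Oasl2 measured 202, 201 and 204 TPM in MOC1 and 35.8, 38.7 and 37.1 TPM in MOC1E1 (log2 difference -2.41 ± 0.045 SE, adjusted p = 1.26e-07). The abundant membrane proteins fell less: Ifitm3, which blocks viral entry, went from 3133 to 2087 TPM and Bst2, tetherin, went from 326 to 219 TPM.

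Antigen presentation by class I was split. Of 23 tested genes 16 fell and 3 rose, with a median of -0.36. The heavy chain H2-K1 was among the most abundant transcripts of the cells, with 4377, 3923 and 4173 TPM in MOC1 and 4013, 4124 and 4046 TPM in MOC1E1, and overlapped between lines (log2 difference -0.033 ± 0.053 SE, adjusted p = 0.635; 0.05 after trimmed-mean scaling). H2-D1, the other classical heavy chain of this strain, measured 1546, 1708 and 1709.5 TPM in MOC1 and 1948, 1787 and 1964 TPM in MOC1E1 and rose slightly (log2 difference 0.20 ± 0.061 SE, adjusted p = 0.0271), but missed the threshold after quantile normalization (adjusted p = 0.141). Its adjusted p was also 0.0675 without MOC1 S4, 0.092 without MOC1E1 S10 and 0.082 without MOC1E1 S12. The light chain B2m measured 3531, 3317 and 3548 TPM in MOC1 and 2618, 2707 and 2456 TPM in MOC1E1 (log2 difference -0.42 ± 0.055 SE, adjusted p = 0.00059). That is a fall of 1.34-fold on this scale. H2-T23, which encodes Qa-1, the ligand of the inhibitory receptor NKG2A, measured 277, 252 and 263 TPM in MOC1 and 109, 107 and 114 TPM in MOC1E1 and fell (log2 difference -1.26 ± 0.051 SE, adjusted p = 1.85e-06).

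The loading and cutting machinery fell as well. Psme1, a subunit of the proteasome activator, went from 543 to 257 TPM. The peptide editors Tapbp and Tapbpl went from 543 to 321 TPM and from 76.7 to 39.7 TPM. Nlrc5, the transactivator of class I genes, measured 64.4, 64.1 and 52.2 TPM in MOC1 and 80.1, 67.9 and 81.2 TPM in MOC1E1 and rose (log2 difference 0.34 ± 0.10 SE, adjusted p = 0.0264), although the adjusted p was 0.0608 without MOC1 S6, 0.0801 without MOC1E1 S10 and 0.0828 without MOC1E1 S12. The chaperone Calr, calreticulin, rose from 1006 to 1341 TPM. Nlrc5 and Calr both lie on chromosome 8, whose genes were higher as a group, as described below.

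Class II genes were expressed by both cultures and were lower in MOC1E1. Of 13 tested members 10 fell and 2 rose, with a median of -1.11. The invariant chain Cd74 measured 599, 544 and 553 TPM in MOC1 and 143, 146 and 155 TPM in MOC1E1 (log2 difference -1.93 ± 0.053 SE, adjusted p = 4.39e-07). H2-Aa measured 204, 198 and 192 TPM in MOC1 and 48.3, 48.8 and 45.3 TPM in MOC1E1 (log2 difference -2.04 ± 0.048 SE, adjusted p = 3.04e-07), H2-Ab1 went from 201 to 63.7 TPM, and H2-Eb1 went from 212 to 54.047 TPM. The 3 structural chains thus fell by between 3.12- and 4.11-fold on this scale. H2-DMb1, a chain of the peptide exchanger, went from 131 to 34.7 TPM. Ciita, the class II transactivator, measured 22.7, 23.8 and 20.99 TPM in MOC1 and 9.81, 9.25 and 11.2 TPM in MOC1E1 (log2 difference -1.09 ± 0.086 SE, adjusted p = 5.17e-05). The members that rose, Ifi30 and Rfxank, encode a lysosomal thiol reductase and a promoter-binding subunit, and were named after their values were seen. Like Nlrc5 and Calr, Rfxank lies on chromosome 8, whose genes were higher as a group.

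**Figure D2:**
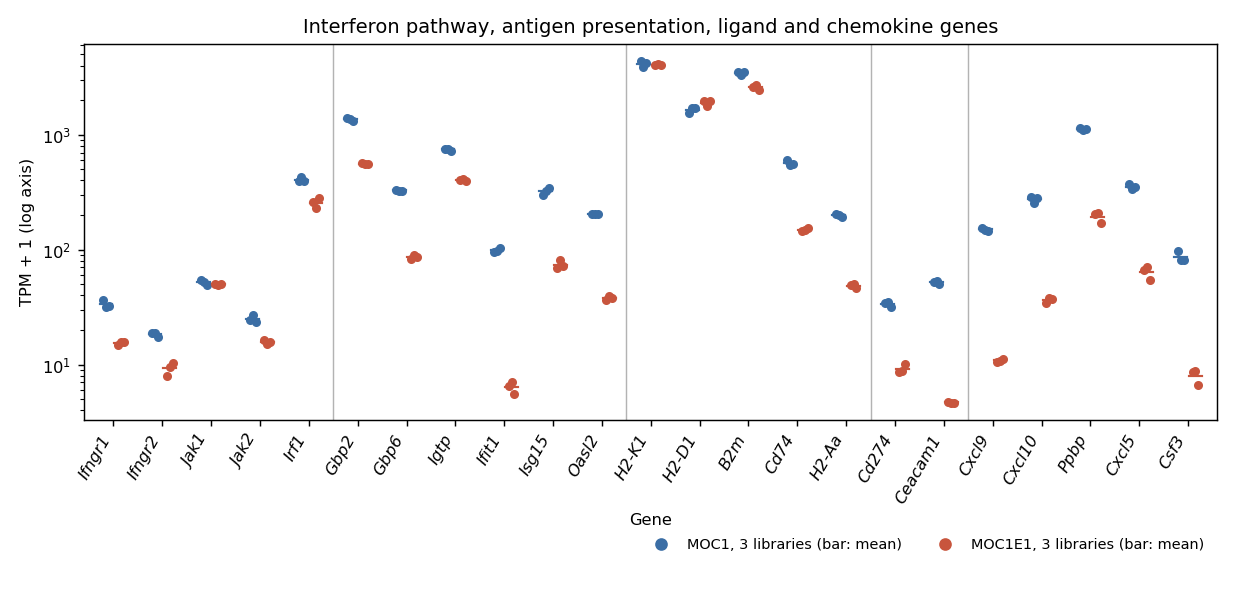
TPM + 1 on a log axis for genes of the interferon gamma pathway, interferon-induced genes, antigen presentation, ligands and chemokines (groups divided by grey lines), with 1 point per library and a bar at the mean of 3. Jak1 and H2-K1 overlap between lines, H2-D1 is higher in MOC1E1, and the other genes shown are lower in MOC1E1 in all 3 libraries.

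Ligands that lymphocytes read on the tumour cell fell in most cases. Of 22 tested members 17 fell and 1 rose, with a median of -0.90. Cd274, which encodes PD-L1, measured 33.4, 33.97 and 30.4 TPM in MOC1 and 7.56, 7.85 and 9.02 TPM in MOC1E1 (log2 difference -1.88 ± 0.082 SE, adjusted p = 2.54e-06). Ceacam1, an adhesion molecule and described as a ligand of Tim-3, measured 51.8, 52.9 and 48.95 TPM in MOC1 and 3.76, 3.66 and 3.67 TPM in MOC1E1 (log2 difference -3.47 ± 0.061 SE, adjusted p = 9.59e-08). Cd80, a ligand of CD28 and CTLA-4, measured 6.68, 7.84 and 7.55 TPM in MOC1 and 0.59, 0.71 and 0.69 TPM in MOC1E1 (log2 difference -2.33 ± 0.10 SE, adjusted p = 2.41e-06). All 3 were lower in every MOC1E1 library than in any MOC1 library. Nectin2, a ligand of DNAM-1, went from 67.4 to 19.4 TPM, and the "do not eat me" signal Cd47 went from 70.4 to 28.9 TPM. The galectins Lgals9 and Lgals3 went from 56.6 to 39.9 TPM and from 265 to 166 TPM. The 1 member that rose, Raet1e, encodes a ligand of the activating receptor NKG2D. It differed by 1.74 and was named after its values were seen.

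Chemokines that attract T cells were lower in 8 of 9 tested cases, with a median of -1.62. The median was -2.91 over the 5 members with a mean of at least 5 TPM and -1.05 without MOC1 S4, which left 7 members. Cxcl9, a ligand of CXCR3, measured 153, 149 and 145 TPM in MOC1 and 9.61, 9.83 and 10.2 TPM in MOC1E1 (log2 difference -3.78 ± 0.050 SE, adjusted p = 4.5e-08). Cxcl10, a second ligand of that receptor, measured 288, 253 and 280.3 TPM in MOC1 and 33.6, 36.7 and 36.2 TPM in MOC1E1 (log2 difference -2.91 ± 0.063 SE, adjusted p = 2.32e-07). Ccl5, a chemokine of the CC class, measured 20.4, 17.97 and 19.8 TPM in MOC1 and 0.85, 0.9 and 0.71 TPM in MOC1E1 (log2 difference -3.49 ± 0.090 SE, adjusted p = 3.73e-07). These 3 fell by between 7.53- and 13.8-fold. Cxcl16 went from 172 to 80.5 TPM and Cx3cl1 went from 15.7 to 11.7 TPM, smaller falls for the 2 chemokines that are made as membrane-bound proteins.

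All 9 tested genes for neutrophil chemokines and myeloid growth factors fell, with a median of -2.30. Ppbp, the precursor of CXCL7, was the most abundant, with 1150, 1089 and 1131 TPM in MOC1 and 202, 206 and 170.1 TPM in MOC1E1 (log2 difference -2.54 ± 0.075 SE, adjusted p = 6.01e-07). Cxcl5 measured 373, 334 and 351 TPM in MOC1 and 65.96, 69.5 and 53.4 TPM in MOC1E1 (log2 difference -2.48 ± 0.098 SE, adjusted p = 1.75e-06), and Cxcl3 measured 16.2, 12.2 and 14.3 TPM in MOC1 and 0.36, 0.45 and 0.43 TPM in MOC1E1 (log2 difference -3.42 ± 0.12 SE, adjusted p = 8.71e-07). All are ligands of CXCR2. Cxcl1, a further ligand, kept most of its level, with 270.4, 266 and 268 TPM in MOC1 and 179, 175 and 198 TPM in MOC1E1 (log2 difference -0.54 ± 0.054 SE, adjusted p = 0.000164). The genes Ppbp, Cxcl5, Cxcl3 and Cxcl1 lie on chromosome 5. Csf3, the granulocyte colony-stimulating factor, measured 96.6, 81 and 79.6 TPM in MOC1 and 7.61, 7.81 and 5.61 TPM in MOC1E1 (log2 difference -3.44 ± 0.13 SE, adjusted p = 1.31e-06), and the interleukin 6 family cytokine Lif went from 134 to 26.3 TPM.

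Most genes for alarmins and for enzymes with immune functions were also lower. Of 10 tested interleukin 1 family and alarmin genes 8 fell and 1 rose, with a median of -1.23. The median was -2.50 over the 8 members with a mean of at least 5 TPM, and -1.89, -2.02 and -1.94 without MOC1 S4, S5 or S6, which each left 9 members. Il1a measured 76.8, 67.6 and 68.1 TPM in MOC1 and 4.2, 5.04 and 3.93 TPM in MOC1E1 (log2 difference -3.74 ± 0.094 SE, adjusted p = 3.25e-07), and its receptor antagonist Il1rn went from 16.1 to 1.07 TPM. Slpi, a secreted inhibitor of leukocyte proteases, was the member that rose, with 325, 335 and 329 TPM in MOC1 and 555, 532 and 553 TPM in MOC1E1 (log2 difference 0.73 ± 0.039 SE, adjusted p = 6.92e-06). Of 14 tested immunosuppressive factors 12 fell and none rose, with a median of -1.13. Arg1, which breaks down arginine, measured 140.01, 131 and 132 TPM in MOC1 and 40.1, 42.8 and 35.4 TPM in MOC1E1 (log2 difference -1.75 ± 0.073 SE, adjusted p = 2.13e-06). Ido1, which breaks down tryptophan, was low in both lines and went from 3.89 to 1.03 TPM. Nt5e, the adenosine-producing CD73, went from 32.3 to 15.5 TPM, Ptgs1 went from 27.8 to 8.7 TPM, and Vegfa went from 75.7 to 31.4 TPM.

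The NF-kappa B list had 17 falls and 1 rise among 21 tested genes, with a median of -0.69. The subunit genes themselves differed modestly: Nfkb1 went from 73.2 to 55.5 TPM and Nfkb2 went from 39.8 to 21.4 TPM. The inhibitor gene Nfkbia, itself a target, measured 129, 144 and 118 TPM in MOC1 and 67.95, 61.3 and 89.6 TPM in MOC1E1 (log2 difference -0.84 ± 0.14 SE, adjusted p = 0.00189). Induced members fell more, with Tnfaip2 going from 42.5 to 3.97 TPM, the ubiquitin editor Tnfaip3 going from 23.3 to 7.17 TPM and the tumour necrosis factor receptor Tnfrsf1b going from 7.34 to 1.0967 TPM. Of 19 tested cell death regulators 12 fell and none rose (median -0.30). The inflammatory caspase Casp4 measured 19.7, 18.7 and 18.4 TPM in MOC1 and 3.68, 3.7 and 3.43 TPM in MOC1E1 (log2 difference -2.11 ± 0.071 SE, adjusted p = 8.29e-07). Gsdmd, the pore-forming gasdermin that it cuts, measured 17.1, 17.9 and 14.8 TPM in MOC1 and 4.89, 4.43 and 4.57 TPM in MOC1E1 (log2 difference -1.64 ± 0.089 SE, adjusted p = 7.54e-06). Casp1 went from 58.7 to 29.8 TPM and the death receptor Fas went from 6.43 to 0.987 TPM.

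Keratins kept the basal pattern in both lines and exchanged some members. Of 12 tested keratins of stratified epithelium 5 rose and 4 fell. Their median, 0.074, was negative under another setting and is not read. Krt14, the partner of Krt5, measured 3167, 3101 and 3171 TPM in MOC1 and 4197, 3979 and 4302 TPM in MOC1E1 (log2 difference 0.40 ± 0.047 SE, adjusted p = 0.000357). Krt5 rose by only 0.15 and was -0.03 after quantile normalization. Its adjusted p was 0.0582 without MOC1 S4, 0.0746 without MOC1 S6, 0.106 without MOC1E1 S10 and 0.092 without MOC1E1 S12. Krt17 and Krt6a, keratins of wounded and hyperproliferative epithelium, fell. Krt17 measured 3398, 3109 and 3356 TPM in MOC1 and 2077, 2051 and 2146 TPM in MOC1E1 (log2 difference -0.65 ± 0.051 SE, adjusted p = 4.73e-05), and Krt6a measured 1944, 1930 and 1945 TPM in MOC1 and 1193, 1113 and 1125 TPM in MOC1E1 (log2 difference -0.76 ± 0.043 SE, adjusted p = 9.96e-06). Krt16, the partner of Krt6a, measured 20.5, 20.1 and 19.1 TPM in MOC1 and 46.97, 40.4 and 39.7 TPM in MOC1E1 and rose (log2 difference 1.05 ± 0.076 SE, adjusted p = 3.3e-05). Among keratins of simple epithelium Krt18 rose from 915 to 1373 TPM and Krt8 from 1033 to 1213 TPM, while Krt19 fell from 615 to 387 TPM and Krt7 from 949.7 to 717 TPM.

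Squamous differentiation genes were lower in 12 of 19 tested cases and higher in 2, with a median of -0.61. Ivl, involucrin of the cornified envelope, measured 15.7, 15.3 and 16.1 TPM in MOC1 and 4.81, 4.41 and 3.77 TPM in MOC1E1 (log2 difference -1.65 ± 0.091 SE, adjusted p = 8.09e-06). Tgm1, the transglutaminase that crosslinks it, measured 12.7, 12.6 and 12.9 TPM in MOC1 and 4.53, 4.14 and 4.59 TPM in MOC1E1 (log2 difference -1.34 ± 0.072 SE, adjusted p = 7.35e-06). Klk8, a protease of differentiating keratinocytes, measured 104, 91.3 and 94.9 TPM in MOC1 and 12.4, 12.5 and 13.3 TPM in MOC1E1 (log2 difference -2.83 ± 0.064 SE, adjusted p = 2.72e-07). The uPAR-like Lypd3 went from 60.9 to 29.7 TPM, the cathepsin inhibitor Cstb went from 255 to 167 TPM, and Sprr2a2, 1 of 3 near-identical copies, went from 200.4 to 62.2 TPM. Among factors of epithelial identity 11 of 20 fell and 5 rose. Elf3 measured 115, 109 and 111 TPM in MOC1 and 29.7, 28.3 and 28.2 TPM in MOC1E1 (log2 difference -1.92 ± 0.047 SE, adjusted p = 3.23e-07). The related Ehf went from 73.8 to 29.3 TPM, and Zfp750, a driver of terminal differentiation, went from 17.6 to 4.78 TPM. Trp63, the master factor of stratified epithelium, had 56.7, 58.6 and 52.3 TPM in MOC1 and 48.1, 45.3 and 47.6 TPM in MOC1E1 and fell by 0.24. Esrp1, an epithelial splicing factor, rose from 121 to 156 TPM.

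Junction genes moved both ways. Of 32 tested members 10 rose and 14 fell, and the median, -0.052, changed sign under other settings. Among those that fell were the claudins Cldn1, Cldn4 and Cldn7. Cldn1 measured 36.8, 39.1 and 38.6 TPM in MOC1 and 8.7, 8.92 and 8.1 TPM in MOC1E1 (log2 difference -2.03 ± 0.062 SE, adjusted p = 6.38e-07), Cldn4 measured 242, 217 and 222 TPM in MOC1 and 88.04, 93.9 and 93.1 TPM in MOC1E1 (log2 difference -1.30 ± 0.055 SE, adjusted p = 2.23e-06), and Cldn7 went from 381 to 206 TPM. The connexin Gjb2 measured 6.64, 5.53 and 5.88 TPM in MOC1 and 0.25, 0.41 and 0.28 TPM in MOC1E1 (log2 difference -2.42 ± 0.11 SE, adjusted p = 3.37e-06). Ctnnb1, beta-catenin, went from 627 to 409 TPM. E-cadherin moved the other way, with Cdh1 at 251, 264 and 246 TPM in MOC1 and 323, 312 and 328 TPM in MOC1E1 (log2 difference 0.34 ± 0.044 SE, adjusted p = 0.000556), and Epcam rose from 454 to 529.6 TPM.

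Vimentin was not joined by most other mesenchymal genes. Of 17 tested transition factors and markers 12 fell and 4 rose, with a median of -0.46. Tenascin C, Tnc, measured 162, 168 and 148 TPM in MOC1 and 53.7, 51.98 and 52.9 TPM in MOC1E1 (log2 difference -1.58 ± 0.056 SE, adjusted p = 1.1e-06). Fibronectin, Fn1, went from 167 to 119.95 TPM, the fibronectin receptor chain Itga5 went from 7.93 to 2.21 TPM, the receptor kinase Axl went from 344 to 248.7 TPM, and Cd44 went from 222 to 162 TPM. Matrix genes were mixed, with 7 of 27 higher and 12 lower (all tested genes: 20.2% and 33.2%). The sign of their median depended on the setting. Efemp1 and Fbln1, 2 fibulins, measured 25.7, 24.4 and 26.96 TPM in MOC1 and 1.83, 2.09 and 2.21 TPM in MOC1E1 (log2 difference -3.13 ± 0.082 SE, adjusted p = 3.73e-07) and 32.5, 31.9 and 31.2 TPM in MOC1 and 3.5, 3.17 and 3.4 TPM in MOC1E1 (log2 difference -2.92 ± 0.066 SE, adjusted p = 2.72e-07). Lama4 went from 7.56 to 0.41 TPM. Col4a1 of basement membranes rose from 218 to 369 TPM, and thrombospondin 1, Thbs1, rose from 153 to 289.7 TPM.

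Adhesion receptors and extracellular proteases added to the lower side. Of 19 tested adhesion genes 10 fell and 4 rose. Itgb1, the common beta chain, rose from 216 to 302 TPM, whereas Itga3 fell from 589 to 376 TPM and Itgb5 fell from 21.993 to 5.74 TPM. Of 27 tested proteases and inhibitors 14 fell and 5 rose, with a median of -0.50, which was -0.236 without MOC1 S4 and -0.275 without MOC1 S5. The urokinase gene Plau went from 40.9 to 13.2 TPM, the metalloprotease Adam8 went from 123 to 48.3 TPM, and Timp1, an X-linked metalloprotease inhibitor, went from 23.1 to 7.35 TPM. Serpinb9, which inhibits granzyme B, measured 71.6, 72.04 and 69.01 TPM in MOC1 and 18.4, 20.9 and 18.7 TPM in MOC1E1 (log2 difference -1.82 ± 0.061 SE, adjusted p = 8.23e-07).

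Surface and mucosal products were among the most abundant genes that fell. Of 12 tested Ly6 family genes 8 fell and 2 rose, with a median of -0.695. Ly6a, known as Sca-1, measured 3273, 2991 and 3086 TPM in MOC1 and 1367, 1391 and 1308 TPM in MOC1E1 (log2 difference -1.20 ± 0.051 SE, adjusted p = 2.26e-06). Ly6c1 measured 1556, 1546 and 1538 TPM in MOC1 and 351, 333 and 347 TPM in MOC1E1 (log2 difference -2.17 ± 0.039 SE, adjusted p = 1.14e-07), and Ly6e went from 2828 to 1997 TPM. Ly6a and Ly6c1 have close copies on chromosome 15. All 7 tested arachidonate and mucosal genes fell, with a median of -2.92. The lipoxygenases Alox15, Alox12 and Alox12e went from 20.9 to 1.5 TPM, from 11.9 to 1.36 TPM and from 9.48 to 0.107 TPM. The membrane mucin Muc4 measured 9.87, 8.01 and 8.69 TPM in MOC1 and 0.46, 0.21 and 0.23 TPM in MOC1E1 (log2 difference -2.92 ± 0.12 SE, adjusted p = 2.18e-06), and Wfdc2, a secreted WAP-domain protein, measured 1164, 1061 and 1033 TPM in MOC1 and 432, 449.5 and 415 TPM in MOC1E1 (log2 difference -1.33 ± 0.058 SE, adjusted p = 2.49e-06).

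Transcripts of most tested genes for retinoid uptake and metabolism were lower. Of 11 tested genes 8 fell and 1 rose, with a median of -0.535, or -1.70 over the 9 members with a mean of at least 5 TPM. The receptor Stra6 is described above. Rdh10, which oxidizes retinol, went from 49.6 to 13.2 TPM. Dhrs3, which runs the reverse step, measured 27.3, 24.2 and 25.4 TPM in MOC1 and 2.12, 1.53 and 2.28 TPM in MOC1E1 (log2 difference -3.17 ± 0.11 SE, adjusted p = 1.13e-06). The carrier of retinoic acid Crabp2 stayed abundant, going from 449 to 309 TPM.

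Proliferation genes leaned the other way by small amounts. Of 39 tested cell cycle genes 19 rose and 9 fell (20.2% of all tested genes rose), with a median of 0.18. Ccna2 measured 189.8, 198 and 189.97 TPM in MOC1 and 265, 269.6 and 256 TPM in MOC1E1 (log2 difference 0.45 ± 0.042 SE, adjusted p = 0.000119), the replication helicase subunit Mcm5 measured 143, 152 and 142 TPM in MOC1 and 216, 209.5 and 214 TPM in MOC1E1 (log2 difference 0.54 ± 0.044 SE, adjusted p = 5.53e-05), and the kinases Cdk1 and Cdk4 rose from 407 to 495 TPM and from 673 to 853 TPM. Cyclin E1 fell furthest among the members named here. Ccne1 measured 112, 111 and 110.5 TPM in MOC1 and 23.1, 23.2 and 29.5 TPM in MOC1E1 (log2 difference -2.10 ± 0.093 SE, adjusted p = 2.72e-06). Ccnb2 went from 55.9 to 26.3 TPM, and Ccnd1 went from 699.7 to 595 TPM. Of the cell cycle inhibitors Cdkn1a (p21) fell from 37.967 to 22.98 TPM and Cdkn2c (p18) rose from 9.84 to 21.3 TPM. Cdkn2a had 144, 124 and 133 TPM in MOC1 and 119, 116 and 135 TPM in MOC1E1, which overlapped (log2 difference -0.11 ± 0.078 SE, adjusted p = 0.264). Trp53 rose from 166 to 207 TPM, and its target Sesn2 fell from 17.1 to 4.67 TPM. The list of p53 targets had 7 rises and 8 falls among 24 (all tested genes: 20.2% higher, 33.2% lower).

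Growth factor genes of the EGF receptor family were higher in 11 of 21 tested cases and lower in 5, with a median of 0.14. The ligand Areg measured 14.8, 15.7 and 16.5 TPM in MOC1 and 29.7, 26.1 and 26.4 TPM in MOC1E1 (log2 difference 0.77 ± 0.073 SE, adjusted p = 0.00013), and Nrg1, a ligand of ErbB3 and ErbB4, measured 25.5, 26.1 and 24.8 TPM in MOC1 and 38.8, 35.5 and 38.3 TPM in MOC1E1 (log2 difference 0.54 ± 0.056 SE, adjusted p = 0.000192). Epgn was low, with 0.67, 0.79 and 0.86 TPM in MOC1 and 3.13, 2.66 and 2.49 TPM in MOC1E1. The receptor gene Egfr measured 22.6, 23.2 and 17.8 TPM in MOC1 and 22.2, 21.5 and 21.04 TPM in MOC1E1, which overlapped (log2 difference 0.032 ± 0.10 SE, adjusted p = 0.81), and it was -0.08 without MOC1 S6. The feedback phosphatase Dusp6 rose from 280.01 to 365 TPM, and Lrig1, which promotes receptor degradation, fell from 9.02 to 3.08 TPM. In the Ras pathway Hras measured 221, 211 and 218 TPM in MOC1 and 187, 182 and 178 TPM in MOC1E1 (log2 difference -0.25 ± 0.041 SE, adjusted p = 0.00193). Map2k2 rose from 94.3 to 148 TPM while its partner Map2k1 fell from 59.2 to 34.1 TPM, and the X-linked Araf fell from 39.6 to 21.3 TPM.

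Other signalling lists were lower or mixed. Of 26 tested Wnt genes 16 fell and 1 rose, with a median of -0.305. The secreted antagonist Dkk3 measured 12.2, 11.5 and 11.3 TPM in MOC1 and 0.13, 0.07 and 0.15 TPM in MOC1E1 (log2 difference -3.51 ± 0.092 SE, adjusted p = 3.73e-07). Sfrp1, a second antagonist, went from 17.4 to 3.88 TPM, the nuclear effector Tcf7 went from 42.4 to 21.3 TPM, and the ligand Wnt10a went from 76.3 to 48.8 TPM. The TGF beta and BMP list had 7 rises and 10 falls among 27, and its median changed sign under other settings. Over all tested genes 20.2% rose and 33.2% fell. Inhbb, an activin subunit, measured 18.4, 17.7 and 16.2 TPM in MOC1 and 2.44, 2.78 and 2.79 TPM in MOC1E1 (log2 difference -2.33 ± 0.084 SE, adjusted p = 1.2e-06). The follistatin-like gene Fstl1 went from 43.2 to 12.1 TPM, Smad3 went from 34.3 to 18.7 TPM, and Ctgf rose from 46.4 to 69.1 TPM. In the Notch list 4 of 13 rose and 5 fell. The ligand Jag2 rose from 139.8 to 225 TPM, and the target Hes1 measured 74.3, 69.3 and 66.6 TPM in MOC1 and 123, 108 and 152 TPM in MOC1E1 and rose (log2 difference 0.85 ± 0.12 SE, adjusted p = 0.000762).

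Glycolysis genes had 5 rises and 9 falls among 24, near the shares over all tested genes (20.2% higher, 33.2% lower). The hexokinase Hk1 measured 34.02, 37.2 and 31.2 TPM in MOC1 and 101, 89.6 and 106 TPM in MOC1E1 (log2 difference 1.51 ± 0.085 SE, adjusted p = 9.47e-06) and the second hexokinase Hk2 measured 91.6, 92.7 and 85.97 TPM in MOC1 and 49.8, 40.2 and 51.1 TPM in MOC1E1 (log2 difference -0.93 ± 0.092 SE, adjusted p = 0.000152). Eno1 rose from 1983 to 2723 TPM, while Pgk1, an X-linked gene, fell from 789 to 466 TPM and Ldha fell from 1531 to 1173 TPM. The lactate exporter Slc16a3 went from 14.1 to 2.49 TPM. Detoxification genes had 11 rises and 12 falls among 38, and a median whose sign depended on the setting. Gsto1 measured 2202, 1999.9 and 2186 TPM in MOC1 and 1044, 1058 and 1017 TPM in MOC1E1 (log2 difference -1.03 ± 0.051 SE, adjusted p = 4.67e-06), the aldose reductase Akr1b3 went from 589 to 238 TPM, and Gsta3 went from 14.1 to 1.11 TPM, against rises of Gstm1 and of the peroxiredoxin Prdx1 (from 742 to 1046 TPM).

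Of 24 tested cholesterol synthesis genes 16 fell and none rose, with a median of -0.24. The X-linked enzymes Ebp and Nsdhl went from 97.1 to 49.95 TPM and from 36.9 to 18.6 TPM, and Hsd17b7 went from 43.1 to 22.2 TPM. Nuclear-encoded respiratory chain genes were near balance, with 8 rises and 7 falls among 34 and a median of 0.043. Ndufa4 was the largest rise there, from 512 to 907 TPM. Atp5b went from 1759 to 2418 TPM and Cox4i1 from 426 to 594 TPM.

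Genes of DNA methylation and chromatin silencing had 9 rises and 4 falls among 18, with a median of 0.19. The deacetylase Hdac1 measured 93.5, 91.9 and 90.4 TPM in MOC1 and 151, 155 and 159.7 TPM in MOC1E1 (log2 difference 0.75 ± 0.042 SE, adjusted p = 8.69e-06), and Ezh2, the methyltransferase of Polycomb complex PRC2, rose from 154 to 191 TPM. Trim28, the corepressor KAP1, fell from 778 to 565 TPM, and the X-linked demethylase Kdm6a fell from 44.8 to 28.043 TPM. Of 27 imprinted and testis-restricted genes only 7 passed the filter on low values. Igf2, an imprinted growth factor on chromosome 7, measured 15.98, 12.2 and 14.6 TPM in MOC1 and 0.74, 0.78 and 0.8 TPM in MOC1E1 (log2 difference -3.10 ± 0.11 SE, adjusted p = 1.13e-06), and its neighbour H19, a noncoding RNA, measured 8.39, 6.64 and 6.61 TPM in MOC1 and 0.32, 0.1 and 0.2 TPM in MOC1E1 (log2 difference -2.76 ± 0.13 SE, adjusted p = 3.73e-06). Mest, imprinted on chromosome 6, went the other way with 1.34, 1.64 and 1.54 TPM in MOC1 and 7.04, 7.41 and 7.18 TPM in MOC1E1 (log2 difference 1.71 ± 0.091 SE, adjusted p = 6.68e-06). Rhox5 was the only other member that rose.

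**Figure D3:**
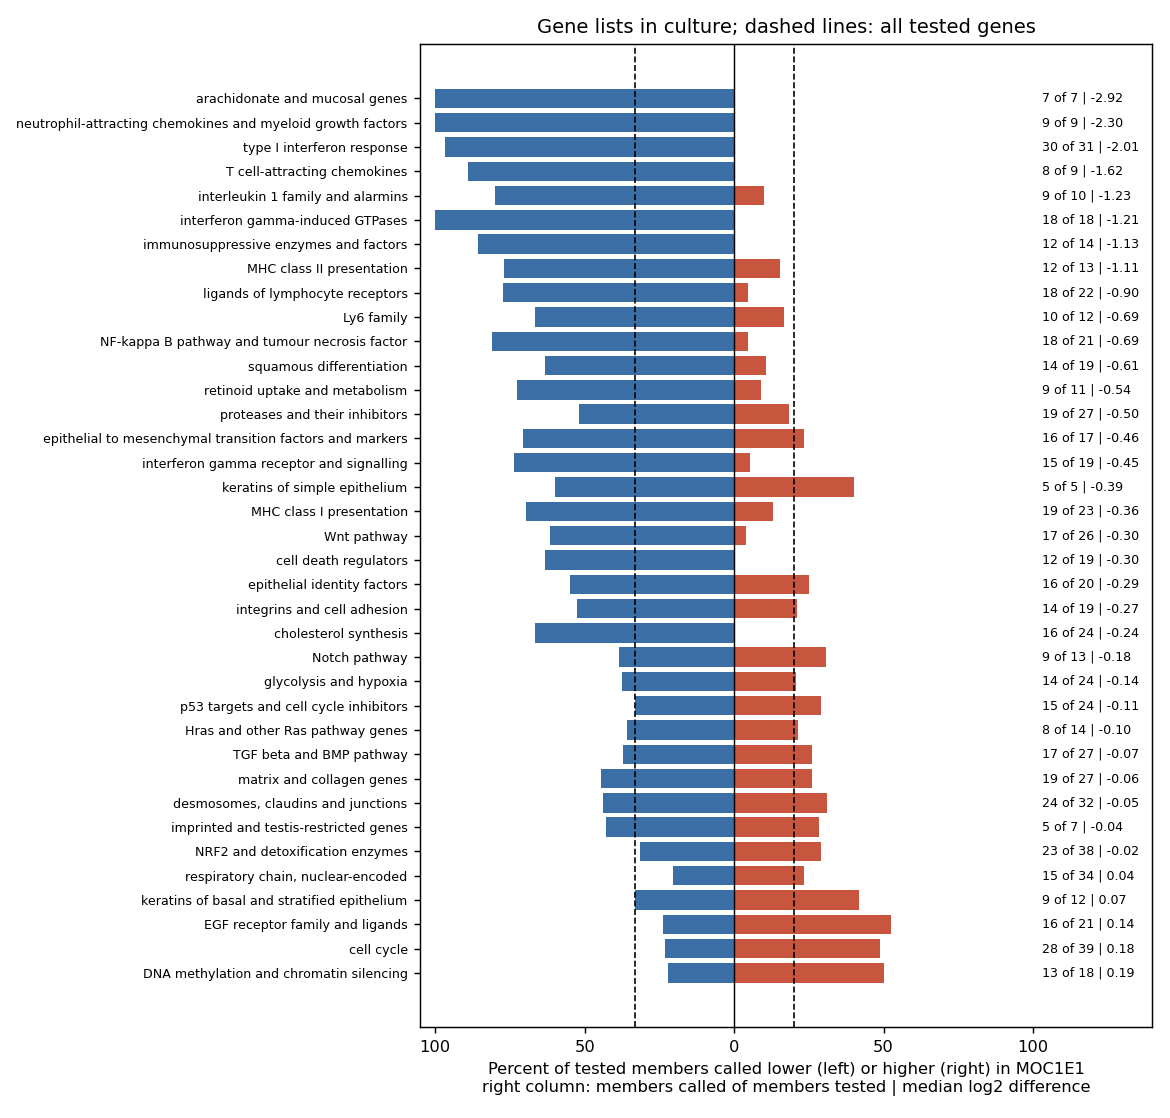
Percent of the tested members of 37 gene lists called lower (left, blue) or higher (right, red) in MOC1E1, ordered by median log2 difference, with the number called and the median in the right column. The dashed lines mark 33.2% lower and 20.2% higher over all tested genes. The arachidonate and mucosal, neutrophil chemokine and type I interferon lists have the lowest medians and lie at the top.

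Differences were also arranged along the genome. Among chromosomes with at least 100 tested genes, the median difference ran from -0.455 on X to 0.30 on chromosome 8. On X 64.3% of 462 tested genes fell and 6.49% rose. On chromosome 14, 57.3% of 452 genes fell (median -0.32), and the medians of chromosomes 7 and 5 were -0.24 and -0.22. After quantile normalization these medians were nearer 0, at -0.187 on chromosome 14, -0.117 on chromosome 7 and -0.108 on chromosome 5. On chromosome 8 57.3% of 714 genes rose and 10.9% fell, and on chromosome 10, with a median of 0.22, 49.4% of 623 rose. The medians were alike in the 3 MOC1E1 libraries. Against the mean of MOC1 they were -0.45, -0.46 and -0.47 on X and 0.31, 0.27 and 0.34 on chromosome 8, while the MOC1 libraries stayed between -0.035 and 0.023 on both.

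The shifts were also read in stretches along each chromosome. In windows of 25 neighbouring tested genes, 16 of 18 windows on X and 15 of 18 on chromosome 14 had a median of -0.2 or lower. On chromosome 8 24 of 28 windows were at 0.2 or higher, and on chromosome 10 12 of 24 were. On chromosome 7 22 of 39 windows and on chromosome 5 21 of 33 were at -0.2 or lower, and the highest windows there reached 0.12 and 0.10. The medians of chromosomes 5 and 10 lie near a cutoff, so the counts there do not measure the extent of the shift. On chromosome 9 18 of 28 windows were at -0.2 or lower. Neighbouring windows there went from 0.143 (C2cd2l to Bace1) to -0.499 (Rnf214 to AU019823). On chromosome 7 neighbouring windows went from -0.331 (Ndufs6b to Rps13-ps2) to 0.084 (Tmem135 to Ints4). Xist, the RNA of the inactive X chromosome, was present in both lines and overlapped, with 199, 234 and 149 TPM in MOC1 and 164, 119.8 and 156 TPM in MOC1E1 (log2 difference -0.39 ± 0.18 SE, adjusted p = 0.102). The Y-linked gene Ddx3y was at or below 0.01 TPM in all libraries. The interferon and chemokine lists were also read against these shifts. With each gene's chromosome median subtracted, an alternative chosen after seeing the data, the median was -1.85 for the type I interferon list, -1.25 for the GTPases and -2.16 for the neutrophil chemokine list. Copy number was not analysed here.

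**Figure D4:**
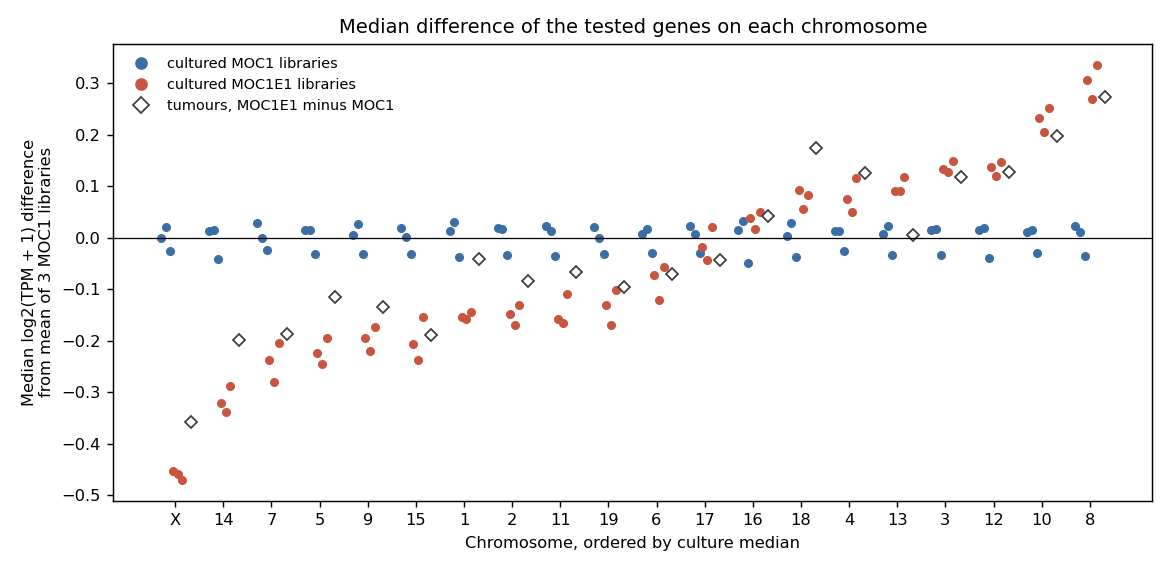
Median over the tested genes of each chromosome of the log2(TPM + 1) difference from the mean of the 3 MOC1 libraries, for 3 MOC1 (blue) and 3 MOC1E1 (red) culture libraries, with the median difference between MOC1E1 and MOC1 tumours as open diamonds. The MOC1E1 points descend to -0.47 on X and reach 0.34 on chromosome 8, and the tumour diamonds lie on the same side of 0 for X (-0.36) and chromosome 8 (0.27).

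The same contrast in untreated bulk tumours was fitted in its own table, which was normalized separately, so values are set side by side without a test across them. In bulk tumours fewer cells of a type and less RNA per cell cannot be told apart. There limma called 1014 of 15125 genes higher in MOC1E1 (6.7%) and 1806 lower (11.9%). The chromosome medians followed the culture order, with -0.36 on X and 0.27 on chromosome 8 (Pearson r 0.963 and Spearman rho 0.935 over 20 chromosomes, points that share the 2 lines). Of the genes that rose in culture 2633 were tested in tumours, and 23.1% were also higher and 1.94% lower there. Of the genes that fell in culture 4429 were tested in tumours, and 23.4% were lower and 1.69% higher. Of the 213 that had fallen by 2 log2 units or more, 58.2% were lower in tumours, and 2 genes were higher. Of the 10 that had risen by 2 log2 units or more, 4 were higher in tumours and 2 were lower.

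Rhox5 kept its difference in tumours, with 16.7, 12.9 and 14.7 TPM in MOC1 and 263, 314 and 279.6 TPM in MOC1E1 (log2 difference 4.18 ± 0.12 SE, adjusted p = 3.94e-06). Ctnnal1 (1.51), Sgk1 (0.94) and Vim (0.81) were also higher. Ceacam1 had 163, 174 and 165 TPM in MOC1 and 12.4, 16.7 and 12.9 TPM in MOC1E1 (log2 difference -3.50 ± 0.12 SE, adjusted p = 1.11e-05), about the culture difference. Ppbp had 248, 307 and 277 TPM in MOC1 and 23.6, 18.4 and 23.1 TPM in MOC1E1 (log2 difference -3.62 ± 0.12 SE, adjusted p = 1.11e-05), and Cxcl3 and Cxcl5 were also lower, with differences of -4.02 and -2.60 on the log2 scale. Cd274 was lower in tumours too (log2 difference -1.47 ± 0.31 SE, adjusted p = 0.0174). Ly6k (-3.55), Muc4 (-4.07), Il1a (-2.77) and Arg1 (-3.05) were called lower as well. Piwil2, Rgs4 and Serping1, absent from cultured MOC1E1, were lower in MOC1E1 tumours, with differences of -2.61, -1.35 and -1.31.

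The interferon lists had few calls in tumours. Of the 31 type I interferon genes 1 was called lower and 1 higher in tumours, with a median of -0.23. None of 17 tested GTPases was called, with a median of -0.67. Ifit3 had 83.5, 70.5 and 63.5 TPM in MOC1 and 19.4, 17.5 and 101 TPM in MOC1E1 (log2 difference -1.11 ± 0.59 SE, adjusted p = 0.228), a spread in which the groups overlapped. Cxcl9 (log2 difference -0.40 ± 0.57 SE, adjusted p = 0.659) and Cxcl10 (log2 difference -0.32 ± 0.62 SE, adjusted p = 0.76) were not called. The class II chain Cd74 differed by -0.064. Of the neutrophil chemokine list, by contrast, 6 of 9 were lower (median -1.49), and of the Ly6 list 10 of 14 (median -1.35). Tumours hold other cells: of 18 tested leukocyte markers 8 were lower, of 12 fibroblast markers 2, and of 7 muscle and erythrocyte markers 4 (median -4.19). Their part in the tumour values was not tested. Some large culture differences had no called counterpart. Serpina3g (-1.23), Gbp10 (-0.79), Sparc (-0.32) and Igfbp2 (0.56) missed the threshold in tumours.

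**Figure D5:**
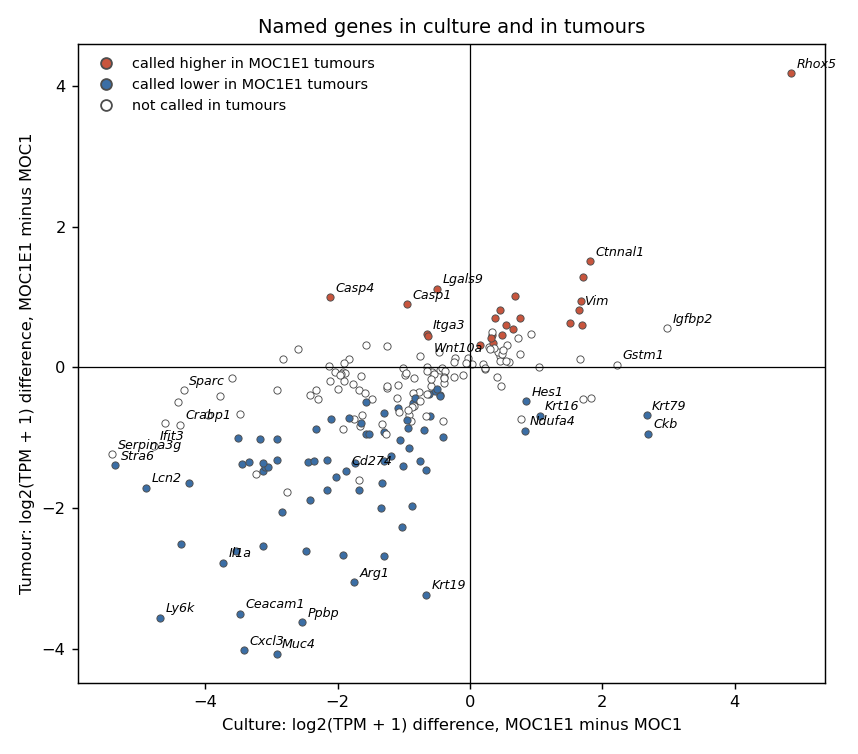
Log2(TPM + 1) difference between MOC1E1 and MOC1 in culture (horizontal) and in bulk tumours (vertical) for 209 genes of the naming rules that appear in the text and have a value in both tables, coloured by the call in tumours. Rhox5 lies alone at the upper right, Ly6k, Ceacam1, Ppbp, Cxcl3 and Muc4 lie at the lower left, and Ckb, Krt79, Casp1 and Casp4 are among the genes in the other quadrants.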

How the data were processed

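Bulk RNA of cultured MOC1 and MOC1E1 cells was measured in 3 libraries per line. The deposited table gives TPM, a length-normalized share of transcripts with the same total in each library, so depth is unknown and no counting interval can be given. Per the submitters' processing notes, the tools include Trimmomatic 0.36 and kallisto 0.46.0, and the builds mm10 and GRCh38 are named with no role. The authors' estimation settings are not given in the sources used here. Columns were matched to groups by cell line and not to label replicate numbers.

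From these values log2(TPM + 1) was fitted with limma 3.58.1 (R 4.3.3, moderated by a trend) for genes at 1 TPM or more in at least 3 libraries, with Benjamini-Hochberg adjustment over all 13975 tested genes and calls at 0.05. Bulk tumours were fitted alike in their own deposited TPM table (15125 genes). The fit was tested on simulated data. Of the tested genes 13220 had a chromosome in the GRCm38.p6 RefSeq table, and 9193 a promoter window. Named genes were the 12 largest rises and falls with a mean of at least 8 TPM and no overlap, the 4 smallest p and 4 highest means of each list, the line-specific genes, and a set named whatever its values. Members, lists and rules were chosen with earlier results of these data known. Alternatives were 2 other pseudocounts, 2 other filters, 2 scalings, robust and weighted fits, stricter calls and leaving out each library. The exome, single-cell and receptor files were not used here, and some genes that met the naming rules are not reported here.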

Additional observations from a re-analysis of the deposited data

Results flagged for a closer look

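At 10 named genes MOC1E1 lay on opposite sides of MOC1 in culture and in tumours, with no overlap between the 3 libraries of each line in either table. The tables were normalized separately, so the difference between the 2 contrasts was not tested, and tumours hold other cells beside the carcinoma.

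Higher in culture and lower in tumours were the following. Ckb differed by 2.69 in culture and -0.94 in tumours (tumour means 17.2 and 8.70 TPM in MOC1 and MOC1E1). Krt79 differed by 2.67 and -0.68, and its tumour means, 454 and 284 TPM, lay far above its culture means of 11.9 and 81.0 TPM. Krt16 differed by 1.05 and -0.68. Hes1 differed by 0.85 and -0.48. Ndufa4 differed by 0.82 and -0.90.

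Lower in culture and higher in tumours were the following. Casp4, an inflammatory caspase, differed by -2.11 in culture and 1.00 in tumours, where the means were 17.8 and 38.7 TPM. Its relative Casp1 differed by -0.96 and 0.90. Lgals9, which encodes galectin 9, differed by -0.49 and 1.12 (adjusted p = 0.000456 by limma in tumours). Itga3 differed by -0.64 and 0.47, and Wnt10a by -0.64 and 0.45.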

How the results depend on the processing

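Of the 7461 called genes in culture, the share that were higher depended on scaling. The 2821 higher calls became 4285 after quantile normalization, 1819 at an adjusted p of 0.01 and 174 with a log2 difference of at least 1, which also left 885 of 4640 lower calls. Leaving out each library in turn gave 2148 to 2755 higher and 3727 to 4372 lower calls. In tumours the same gave 417 to 891 higher (1014 with all 6) and 800 to 1754 lower calls (1806 with all 6). The cause of the scaling dependence was not tested.

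Signs of small differences turned in 4 genes. Krt5 was -0.03 after quantile normalization. Jak1 was 0.02 after trimmed-mean scaling and 0.02 after quantile normalization. H2-K1 was 0.05 after trimmed-mean scaling and ran from -0.07 to 0.01 as each library was left out. Egfr ran from -0.08 to 0.1 in the same way. Of 39 list medians 8 changed sign under at least 1 alternative, all of them within 0.11 of 0 in the values reported. Quantile normalization moved the list medians to -0.143 for cholesterol synthesis, -0.191 for Wnt, -0.14 for cell death regulators, -0.319 for proteases and 0.294 for the EGF receptor family. The X median ran from -0.51 to -0.341 and the chromosome 8 median from 0.281 to 0.422. No paired analysis was possible because the columns carry no replicate numbers of the labels.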
